A study of Bos taurus with 9 samples.

Results

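The TEAD transcription factors and the cofactors that bind them were followed at the transcript level in bovine blastocysts with and without TEAD4. The genes were taken by symbol, under a rule that uses no measured value, although earlier results of these data were known when they were chosen. They comprised the 4 TEADs (TEAD1, TEAD2, TEAD3 and TEAD4), the coactivators YAP1 and WWTR1 (the gene of TAZ) and the vestigial-like genes VGLL1, VGLL3 and VGLL4. All 9 symbols were found among the 21512 genes of the deposited table, and all 9 were among the 14599 genes with a median above 0.1 TPM (transcript abundance scaled to a fixed total per library) that were tested. Only 8 of the 9 were above 0 TPM in every embryo, the exception being VGLL3.

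TEAD proteins bind DNA but activate little transcription by themselves, and the cofactor that occupies them decides the output. YAP and TAZ enter the nucleus and activate TEAD targets when the Hippo kinases LATS1 and LATS2 are inactive, whereas phosphorylated YAP and TAZ are retained in the cytoplasm. Vestigial-like proteins dock on an overlapping surface of TEAD and therefore compete with YAP and TAZ. In the mouse embryo, nuclear YAP with TEAD4 in the outer cells switches on trophectoderm genes such as CDX2 and GATA3.

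RNA-seq was performed on 9 single blastocysts, 5 wild type (WT) and 4 TEAD4-/- (KO), all produced in vitro from oocytes fertilized with semen of a single bull and collected on day 8 (D8). WT embryos came from mature oocytes injected with Cas9 mRNA alone before fertilization, so both groups had received the nuclease mRNA. KO embryos came from oocytes injected with Cas9 mRNA together with a guide RNA against the fourth exon of TEAD4, and were embryos in which all alleles read carried insertions or deletions that disrupt the frame. Each library held a whole blastocyst, that is, inner cell mass and trophectoderm together, and each embryo is counted as 1 replicate, numbered as in the deposited table. In such bulk samples, fewer cells of a type and less RNA per cell cannot be told apart.

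The depth of each library cannot be read from the table, because TPM does not retain the number of reads, and the study's methods give it only as a range over all samples. Between 14807 and 16678 genes were above 0 TPM in WT and between 14776 and 15375 in KO (two-sided exact permutation, p = 0.0635), and the 10 most abundant genes took 8.39 to 9.86% and 6.99 to 10.3% of the TPM. The median TPM of the genes tested was 5.77 to 7.27 in WT. In KO it ran from 4.26 in embryo 1 to 7.98 in embryo 2, the lowest and highest of all embryos. All 7 trophectoderm markers were above 0 in every embryo, with a summed level of 4344 to 19761 TPM in WT and 6671 to 12728 TPM in KO. Epiblast markers (3 of 4 above 0 everywhere) summed to 6.87 to 459 TPM and 10.1 to 151 TPM, and hypoblast markers (5 of 6) to 84.0 to 162 TPM and 46.4 to 156 TPM. Among these, GATA4, a hypoblast transcription factor, was the single marker whose groups did not overlap, with KO lower. It was scarce, between 0.367 and 1.75 TPM over all embryos, and was not called (limma, adjusted p = 0.684). Such a separation with KO lower held for 1.23% of all genes tested. The other hypoblast markers overlapped between the groups, so GATA4 alone is not read as a result about that list. Markers of cumulus or granulosa cells (2 of 6 above 0 everywhere) summed to 15.5 to 28.0 TPM and 2.77 to 26.7 TPM. FSHR was the largest of them in every embryo, at 12.1 to 26.8 TPM in WT and 1.36 to 23.3 TPM in KO. Sperm transcripts (0 of 3) summed to 1.66 to 121 TPM and 0.779 to 74.9 TPM. No marker was at 0 in all 9 embryos, and the part of these mixtures in the results below was not tested.

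TEAD4, the targeted gene, remained transcribed in every KO embryo. Its level was 18.0, 52.5, 54.3, 36.5 and 43.4 TPM in WT embryos 1 to 5, and 42.8, 41.8, 12.5 and 22.2 TPM in KO embryos 1 to 4. The groups overlapped widely, with WT embryo 1 below 3 of the 4 KO embryos and KO embryo 3 alone below the WT range. The mean was 40.9 ± 14.7 TPM in WT (SD, n = 5) and 29.8 ± 15.0 TPM in KO (SD, n = 4), a log2 fold change of -0.51 (SE 0.42, 95% confidence interval -1.41 to 0.40; limma, adjusted p = 0.947). All log2 fold changes are KO minus WT on the log2(TPM + 1) scale, which understates the change of genes near or under 1 TPM. The estimate was -0.16 without KO embryo 3 and -0.77 without WT embryo 1. An abundance value counts edited and unedited transcripts alike, so it checks neither the edit nor the loss of the protein.

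TEAD1, the paralog known for its broad expression, measured 21.0, 12.5, 8.32, 9.34 and 8.52 TPM in WT, and 9.87, 17.3, 10.3 and 18.3 TPM in KO. WT embryo 1 held the highest value of all 9 embryos and 3 other WT embryos the lowest values. The difference was 0.24 (SE 0.34, interval -0.51 to 0.99; limma, adjusted p = 0.982), and it moved to 0.45 without WT embryo 1 and to 0.10 without KO embryo 4.

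TEAD2, a paralog with high expression in early mouse embryos, measured 18.3, 15.2, 18.0, 28.1 and 16.0 TPM in WT, and 16.4, 20.0, 21.6 and 9.95 TPM in KO. KO embryo 4 was the lowest and WT embryo 4 the highest, while the others lay between 15.2 and 21.6 TPM. The difference of -0.18 (SE 0.30, interval -0.84 to 0.48; limma, adjusted p = 0.982) changed sign to 0.041 without KO embryo 4.

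TEAD3, a paralog known from placenta, measured 20.9, 20.7, 18.7, 13.4 and 23.0 TPM in WT, and 12.3, 29.2, 20.7 and 15.6 TPM in KO. The KO embryos held both the lowest and the highest value. The difference was -0.039 (SE 0.30, interval -0.69 to 0.61; limma, adjusted p = 0.994), with a sign that depended on the scaling: 0.015 with median-of-ratios size factors and 0.057 with quantile normalization. The intervals of the 3 paralogs reach up to 0.99, 0.48 and 0.61, so the data do not exclude increases of TEAD1, TEAD2 or TEAD3 up to these sizes.

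**Figure D1:**
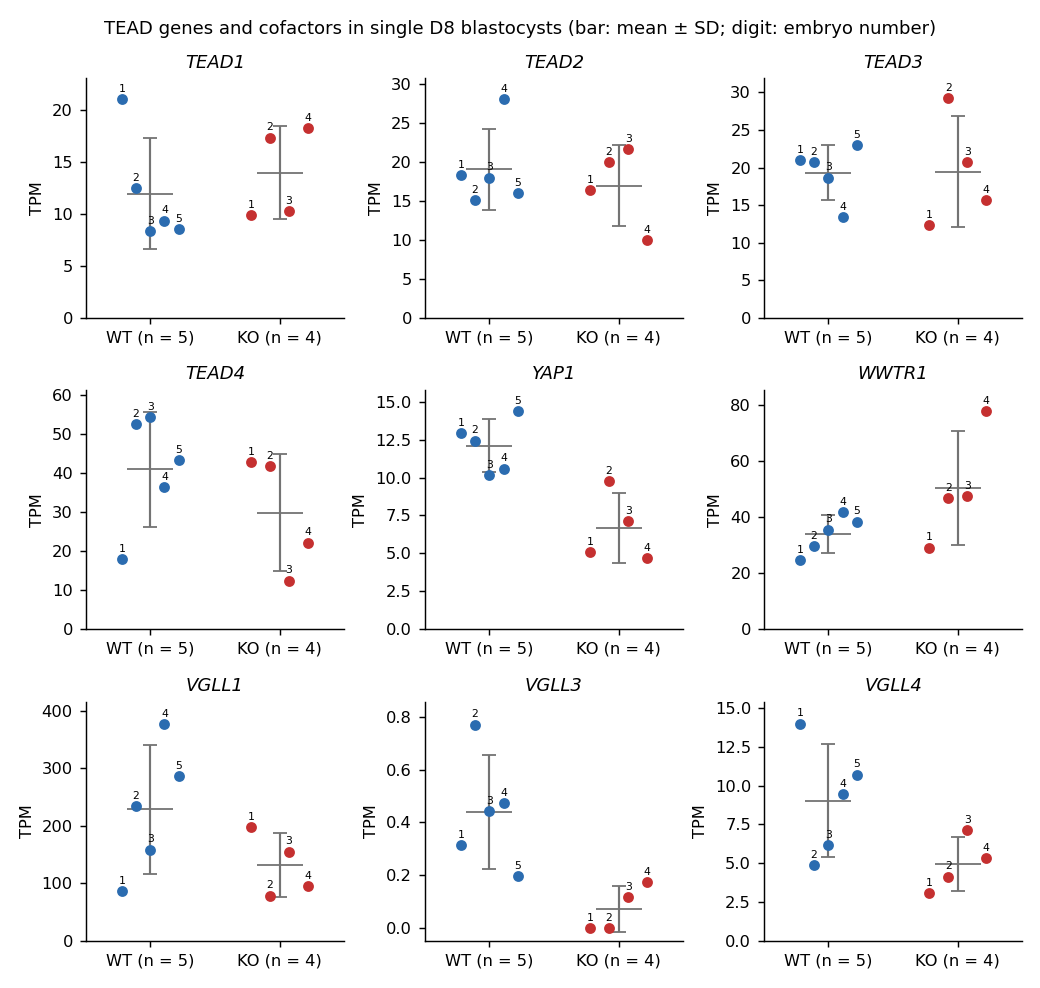
TPM of the 9 genes in each blastocyst, 1 panel per gene on a linear axis of its own, with WT embryos (blue, n = 5) beside KO embryos (red, n = 4), horizontal bars at the mean and whiskers of 1 SD. YAP1 and VGLL3 are the panels in which all KO points lie below all WT points, and in the other 7 panels the groups overlap.

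The balance of the paralogs was then compared within each embryo, where the common scaling of a library cancels. TEAD4 took 23.1, 52.0, 54.7, 41.8 and 47.7% of the summed TEAD TPM in WT, and 52.6, 38.6, 19.2 and 33.6% in KO. It was the most abundant TEAD in 4 of 5 WT and 3 of 4 KO embryos. TEAD1 led in WT embryo 1 and TEAD2 in KO embryo 3, the 2 embryos with the lowest TEAD4. These embryos also had the lowest summed epiblast markers, 6.87 and 10.1 TPM, and the part of that in their TEAD balance was not tested.

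TEAD4 made up 43.9 ± 12.6% of the pool in WT and 36.0 ± 13.8% in KO (SD, n = 5 and 4), a difference of -7.86 percentage points that ran from -13.4 without KO embryo 1 to -2.25 without KO embryo 3. The other shares were 13.5 ± 7.58% and 17.9 ± 6.74% for TEAD1, 21.3 ± 6.82% and 21.7 ± 7.97% for TEAD2, and 21.3 ± 4.69% and 24.4 ± 7.02% for TEAD3, and the groups overlapped for each of them. The summed TEAD level was 91.3 ± 9.24 TPM in WT and 80.2 ± 20.2 TPM in KO, and without TEAD4 it was 50.4 ± 5.88 TPM and 50.4 ± 12.2 TPM. The ratios of TEAD4 to TEAD1, TEAD2 and TEAD3 differed between the groups by -0.79, -0.33 and -0.48 on the log2 scale (exact permutation tests, two-sided, p = 0.270, 0.603 and 0.413; 0.921 for each after adjustment over the 7 ratios tested here). Each of the 3 differences was smaller than the SD of the log2 ratio within WT, which was 1.15, 0.80 and 0.72. Single embryos moved them in both directions. Without KO embryo 3 the differences were -0.55, 0.17 and -0.065. Without WT embryo 1 they were -1.29, -0.60 and -0.79.

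**Figure D2:**
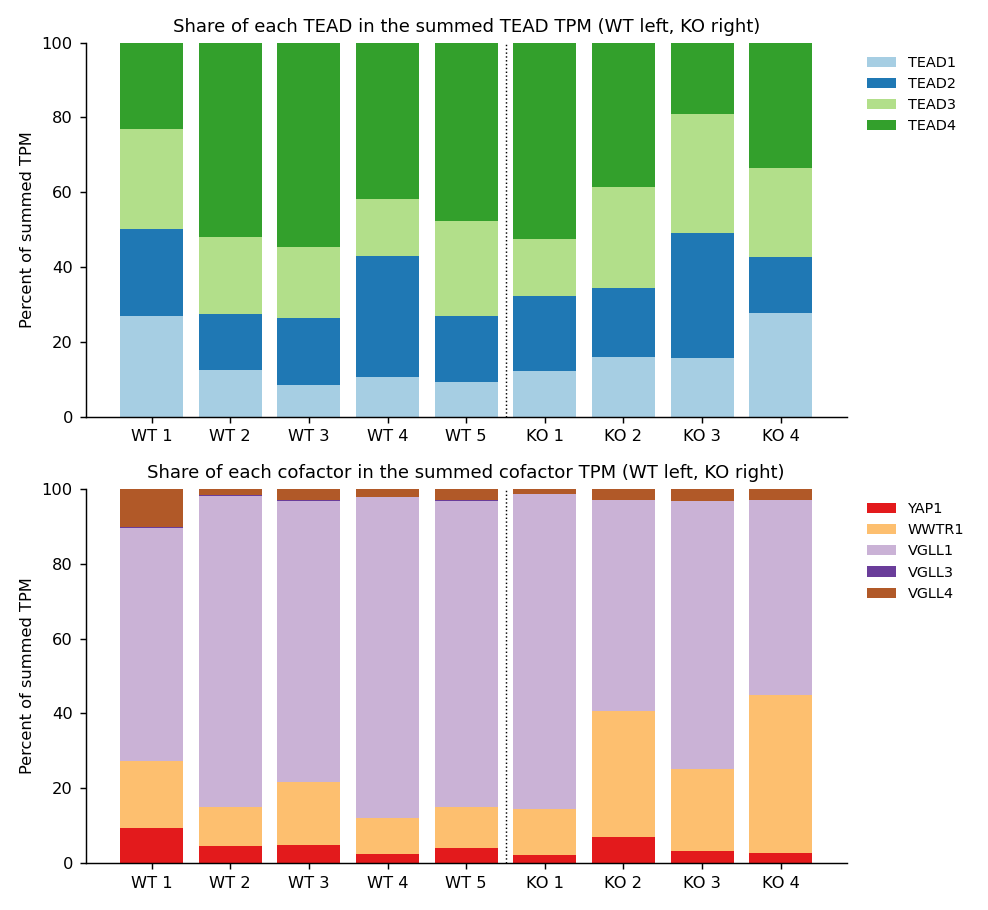
Share of each TEAD (upper panel) and each cofactor (lower panel) in the TPM summed over its group of genes, in percent, for the 5 WT embryos on the left and the 4 KO embryos on the right of the dotted line. TEAD4 spans 19.2 to 54.7% over the 9 embryos, and VGLL1 is the largest cofactor share in all of them.

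Of the coactivators, YAP1 separated the genotypes, with all 4 KO embryos under the lowest WT embryo. It measured 12.9, 12.4, 10.2, 10.6 and 14.4 TPM in WT, and 5.09, 9.76, 7.15 and 4.71 TPM in KO. The lowest WT embryo, at 10.2 TPM, and the highest KO embryo, at 9.76 TPM, were close to each other. Means were 12.1 ± 1.73 TPM (SD, n = 5) and 6.68 ± 2.32 TPM (SD, n = 4), 1.81 times as much in WT.

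The log2 fold change of YAP1 was -0.81 (SE 0.29, interval -1.45 to -0.16), but the gene was not called once adjusted for the 14599 genes tested (limma, unadjusted p = 0.0180, adjusted p = 0.727; range of the adjusted p over the alternatives 0.427 to 0.999). The exact permutation test gave p = 0.0159, which is the smallest value that 5 against 4 embryos allow over 126 splits. Without KO embryo 4, the lowest in YAP1, the log2 fold change was -0.68. The number of genes above 0 overlapped between the groups but reached less high in KO, and its part here was not tested.

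WWTR1 encodes TAZ, the paralog of YAP. Its level was 24.7, 29.5, 35.5, 41.8 and 38.3 TPM in WT, and 29.1, 46.8, 47.4 and 77.7 TPM in KO. KO embryos 2, 3 and 4 were above all WT embryos, and KO embryo 1 was within their range. Means were 34.0 ± 6.84 TPM and 50.3 ± 20.2 TPM (SD, n = 5 and 4), a log2 fold change of 0.49 (SE 0.29, interval -0.15 to 1.14; limma, adjusted p = 0.897). This was 0.26 without KO embryo 4 and 0.72 without KO embryo 1. In the latter case the 3 other KO embryos exceeded every WT embryo, which then held for 2.45% of all genes tested.

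**Figure D3:**
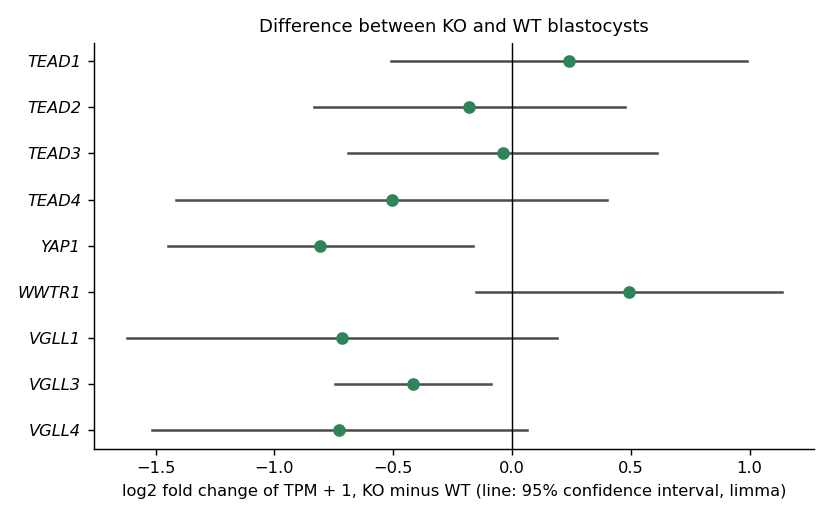
Log2 fold change of TPM + 1 (KO minus WT, horizontal axis) for the 9 genes, with points at the limma estimate and lines for the 95% confidence interval. The intervals of YAP1 and VGLL3 lie below 0 before adjustment for the number of genes, and those of the other 7 genes include 0.

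The coactivators were next set against each other within each embryo. The ratio of WWTR1 to YAP1 was 1.91, 2.37, 3.50, 3.94 and 2.67 in WT, and 5.71, 4.79, 6.63 and 16.5 in KO. TAZ transcripts were thus the more abundant in every embryo, and every KO embryo exceeded every WT embryo. The geometric mean was 2.66 times as high in KO, a log2 difference of 1.41 (two-sided exact permutation, p = 0.0159; 0.111 after adjustment over the 7 ratios), and 1.03 without KO embryo 4. The unadjusted p is the smallest that the test allows, so 1 separated ratio among 7 could not reach a lower adjusted p. YAP1 made up 26.7 ± 5.68% of the 2 coactivators in WT and 12.7 ± 4.98% in KO (SD, n = 5 and 4), while their sum was 46.1 ± 6.55 TPM and 56.9 ± 19.8 TPM with overlapping groups. The separation of the ratio is not independent of that of YAP1 alone.

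VGLL1, a vestigial-like cofactor known from trophoblast, was the most abundant of the genes in all 9 embryos. It measured 86.5, 234, 158, 377 and 286 TPM in WT, and 198, 78.8, 155 and 95.2 TPM in KO. No KO embryo exceeded 198 TPM, while 3 WT embryos did, and WT embryo 1 was nearly as low as the lowest KO embryo. Means were 228 ± 112 TPM and 132 ± 55.1 TPM, a log2 fold change of -0.72 (interval -1.62 to 0.19; limma, adjusted p = 0.897). WT embryo 4, the highest in VGLL1, had a summed trophectoderm marker level of 4344 TPM and WT embryo 1, the lowest WT embryo in VGLL1, one of 19761 TPM. WT embryo 5, the second highest in VGLL1, broke this order with 15923 TPM. The keratin genes KRT8, KRT18 and KRT19 made up most of these sums, and their relation to VGLL1 was not tested.

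VGLL4, which carries a tandem TEAD-binding motif and is known as an antagonist of YAP, measured 14.0, 4.88, 6.16, 9.44 and 10.7 TPM in WT, and 3.09, 4.13, 7.14 and 5.33 TPM in KO. KO embryos 1 and 2 were below all WT embryos, and KO embryos 3 and 4 lay among the lower WT values. Means were 9.03 ± 3.64 TPM and 4.92 ± 1.74 TPM (SD, n = 5 and 4). The log2 fold change was -0.73 (SE 0.36, interval -1.52 to 0.063; limma, unadjusted p = 0.0679, adjusted p = 0.847).

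VGLL3 was scarce, at 0.314, 0.771, 0.443, 0.474 and 0.196 TPM in WT. It was listed at 0 in KO embryos 1 and 2, and at 0.116 and 0.174 TPM in KO embryos 3 and 4, so that the 4 KO embryos lay under the 5 WT embryos. Its mean level stood at the 5.06th percentile of the genes tested, against the 56.0th for YAP1. The log2 fold change was -0.42 (SE 0.15, interval -0.75 to -0.087; limma, unadjusted p = 0.0176, adjusted p = 0.727; exact permutation test, p = 0.0159), and -1.70 with a pseudocount of 0.1 in place of 1 TPM. Over the alternatives the unadjusted limma p ran from 0.005 to 0.115. It was 0.115 with array weights, 0.0711 with quantile normalization and 0.0559 without a trend. At VGLL3 levels this low, without the number of reads behind each value, an exact 0 cannot be read as absence. VGLL2, the family member outside the choice of genes, was listed at 0 in all 9 embryos.

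Of the 9 genes, 0 passed an adjusted p of 0.05 with an absolute log2 fold change above 1, against 0.0205% of all genes tested (3 of 14599). In 2 genes, YAP1 and VGLL3, the highest KO value was below the lowest WT value, which held for 1.23% of all genes, and 0 genes had every KO embryo above, against 0.801% of all genes. The same 2 genes were lower at an unadjusted p under 0.05 (limma), against 3.83% of all genes, and 0 were higher, against 2.07%. By the sign of the estimate alone, 7 genes were lower and 2 (TEAD1 and WWTR1) higher in KO, while the median over all genes tested was itself -0.046. TEAD3, counted as lower, stood near that median, with 51.0% of all genes tested below it. The count of lower genes was 6 with median-of-ratios size factors or quantile normalization, and 5 without KO embryo 4. It is not read as a result about the 9 genes.

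TPM is a length-corrected level, so the 9 genes may be ranked against each other. By the mean in WT the order was VGLL1, TEAD4, WWTR1, TEAD3, TEAD2, YAP1, TEAD1, VGLL4 and VGLL3. VGLL1 exceeded TEAD4, WWTR1 exceeded TEAD3, TEAD2 exceeded YAP1 and VGLL4 exceeded VGLL3 in all 9 embryos. Other neighbours did not differ beyond the spread between embryos: TEAD4 exceeded WWTR1 in 3 of 5 WT and 1 of 4 KO embryos, TEAD3 exceeded TEAD2 in 6 of 9, and TEAD1 exceeded VGLL4 in 7 of 9. YAP1 exceeded TEAD1 in 3 of 5 WT embryos and in 0 of 4 KO embryos, a difference in frequency that was not tested.

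Cofactors that compete for TEAD were set against each other within each embryo. VGLL1 made up 77.7 ± 9.36% of the summed cofactor TPM in WT and 66.0 ± 14.7% in KO, and WWTR1 13.1 ± 3.91% and 27.6 ± 13.2%. YAP1 contributed 5.02 ± 2.58% and 3.76 ± 2.21%, and VGLL4 3.99 ± 3.46% and 2.62 ± 0.887%. The groups overlapped for each share. The difference in the VGLL1 share, -11.6 percentage points on the TPM scale, turned to 0.73 when shares were taken of log2(TPM + 1). The summed VGLL level was 2.68, 5.73, 3.61, 7.39 and 5.63 times the summed coactivators in WT, and 5.88, 1.47, 2.98 and 1.22 times in KO. KO embryos 2 and 4 were below the WT range and KO embryos 1 and 3 within it.

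The ratio of the antagonist VGLL4 to YAP1 was 1.08, 0.392, 0.606, 0.891 and 0.745 in WT, and 0.607, 0.423, 0.998 and 1.13 in KO. Both transcripts had lower means in KO and their ratio was nearly centred on the same value, with a log2 difference of 0.063 (two-sided exact permutation, p = 0.873; 0.921 adjusted). The log2 differences of VGLL1 to YAP1 and of VGLL1 to VGLL4 were 0.19 and 0.12 (exact permutation tests, p = 0.667 and 0.921; 0.921 adjusted for both). For all 3 ratios the sign of the difference depended on which embryo was left out. Coactivators per TEAD were 0.507 ± 0.0793 in WT and 0.758 ± 0.373 in KO, and KO embryos 3 and 4, at 0.839 and 1.25, were above the highest WT embryo at 0.60. The TEAD sum in this ratio counts TEAD4 transcripts in both groups. In KO they carry the edits and made up 19.2 to 52.6% of the sum, and the ratio without them was not taken.

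**Figure D4:**
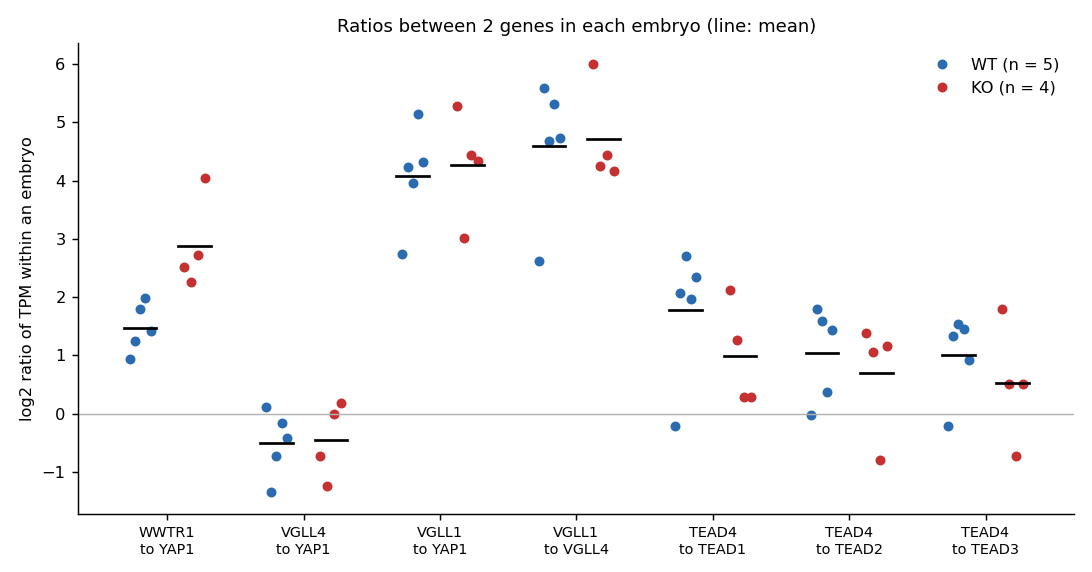
Log2 ratio of the TPM of 2 genes within an embryo (vertical axis) for the 7 ratios tested, with WT embryos in blue (n = 5), KO embryos in red (n = 4) and lines at the group means. WWTR1 to YAP1 is the ratio in which the groups do not overlap, with KO embryo 4 highest at 16.5 on the linear scale.

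The kinases and scaffolds that act upstream on YAP and TAZ were examined as a list of 25 Hippo genes, all of which were tested. With limma, 0 were called, 0 had an unadjusted p under 0.05 (0 to 2 lower and 0 to 1 higher over the alternatives) and 0 had groups that did not overlap. Over all genes tested the shares were 0.0205% called, 3.83% lower and 2.07% higher at that unadjusted p, and 1.23% below and 0.801% above the WT range, so counts of 0 or 1 among 25 genes are near the background. By sign 15 were lower and 10 higher, with a median log2 fold change of -0.19 against -0.046 for all genes tested. The 3 genes with the largest statistic were lower in KO. WTIP, a LIM protein that binds LATS kinases, had a mean of 13.8 ± 5.69 TPM in WT, against 6.87 ± 4.0 TPM in KO (a log2 fold change of -1.01, SE 0.48; limma, adjusted p = 0.846). SAV1, the scaffold of the MST kinases, measured 14.4 ± 6.54 and 8.24 ± 5.49 TPM (-0.87, SE 0.46; adjusted p = 0.884), and RASSF1, a binding partner of MST kinases, 40.8 ± 10.4 and 26.4 ± 11.2 TPM (-0.65, SE 0.30; adjusted p = 0.836). The groups overlapped in each case.

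Genes known in other systems as targets of YAP and TEAD formed a list of 22, of which 21 were in the table and 16 were tested. NUAK2 was not analysed here, and AXL, FJX1, CCDC80, ARHGEF17 and RBMS3 had medians too low to test. With limma, 0 of 16 were called, 2 were lower and 1 higher at an unadjusted p under 0.05, and in 1 gene (6.25%) the KO values lay under the whole WT range. The shares over all genes tested were 3.83% lower, 2.07% higher and 1.23% under the WT range, so that 1 gene among 16 is not read as a result about the list. By sign 9 were lower and 7 higher, with a median of -0.19. The list shares 3 genes with the Hippo list (LATS2, AMOTL2 and PTPN14), which encode inhibitors of YAP and TAZ.

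CCN2, the gene of the matricellular protein CTGF and a standard readout of YAP and TAZ, measured 34.0, 11.5, 18.9, 8.50 and 16.4 TPM in WT, and 17.7, 46.1, 46.5 and 81.6 TPM in KO. KO embryos 2, 3 and 4 were above all WT embryos, the same embryos in which WWTR1 was above all WT embryos. The log2 fold change was 1.34 (SE 0.46; limma, adjusted p = 0.678; exact permutation test, two-sided, p = 0.0476). IGFBP3, a binding protein of insulin-like growth factors, went the other way, with 33.2 ± 16.8 TPM in WT and 15.0 ± 9.93 TPM in KO (-1.19, SE 0.43; limma, adjusted p = 0.718). DOCK5, an exchange factor for Rac, was low, with 0.934 ± 0.477 and 0.249 ± 0.0990 TPM, and was the gene without overlap (-0.60, SE 0.20; limma, adjusted p = 0.671).

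CCN1 and ANKRD1 are the other targets most used as readouts and were picked out after their values had been seen. CCN1 spanned 6.02 to 91.9 TPM in WT and 9.78 to 64.6 TPM in KO, and ANKRD1 0.720 to 11.7 TPM and 4.18 to 11.8 TPM. Their log2 fold changes were 0.26 (SE 0.68) and 0.61 (SE 0.55), and the spread within WT exceeded the difference between the groups.

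**Figure D5:**
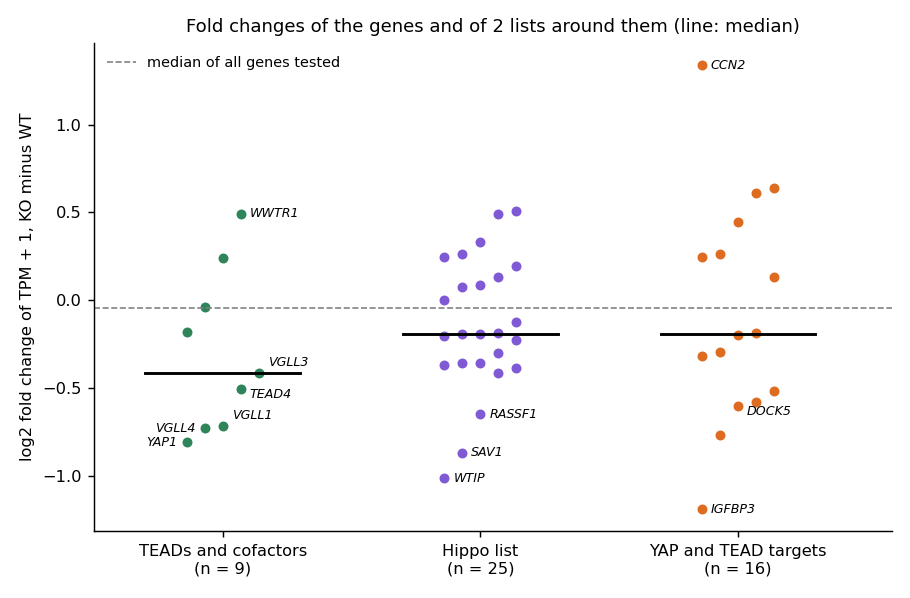
Log2 fold change of TPM + 1 (KO minus WT) for the 9 TEAD and cofactor genes, the 25 Hippo genes and the 16 tested target genes, 1 point per gene, with black lines at the median of each list and a dashed line at the median of all genes tested. CCN2 at 1.34 and IGFBP3 at -1.19 lie at the ends of the target list, and WWTR1 is the highest of the 9 genes at 0.49.

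Finally, the genes whose level followed TEAD4, YAP1, WWTR1 and VGLL1 most closely over the 9 embryos were taken from 10432 genes with a median above 1 TPM. They were picked for the highest correlation of log2(TPM + 1) and are given as a description, over embryos that differ in genotype and cell content. TEAD4 was followed most closely by NFE2, a basic leucine zipper transcription factor (Pearson r = 0.991, Spearman rho = 0.983; r = 0.969 without WT embryo 1 and KO embryo 3), then by PLA2G6 (r = 0.970) and TBC1D22A (r = 0.965). The mean of NFE2 was 36.9 TPM in the WT embryos and 26.4 TPM in KO, with overlapping groups (limma, adjusted p = 0.952). In all, 11 genes exceeded r = 0.9 with TEAD4.

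YAP1 was followed by LIMA1, an actin-binding LIM protein (r = 0.946, rho = 0.983; r = 0.868 without KO embryos 1 and 4), GALM, a galactose mutarotase (r = 0.945), and LDHA, lactate dehydrogenase A (r = 0.932, but 0.716 without the same 2 embryos). LDHA had a mean of 469 TPM in the WT embryos, and of 223 TPM in the KO embryos, but the groups overlapped and it was not called (limma, adjusted p = 0.624). More genes exceeded r = 0.9 with YAP1, 27, than with WWTR1 or VGLL1, with 6 and 5. The closest were MEDAG (r = 0.965), ZNF346 (r = 0.934) and MED1, a Mediator subunit (r = 0.931), for WWTR1, and CNKSR3 (r = 0.932), TMOD1 (r = 0.912) and MCUB (r = 0.911) for VGLL1.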

How the data were processed

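Single D8 bovine blastocysts were profiled by RNA-seq, 5 WT and 4 KO. The authors deposited 1 table of TPM per gene, and per the submitters' processing notes reads passed FastQC, fastp and kallisto. Versions, genome build and annotation are not given in the sources used here, and the library kit and sequencer in the labels differ from those in the study's methods. TPM is scaled within each library and keeps no read depth per library, so no count model was run. Columns were assigned to genotypes by their names. A comparison in the study is named as made without a library whose name matches KO embryo 4, and that embryo was kept here.

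Values were transformed to log2(TPM + 1), genes with a median of 0.1 TPM or less were left out, and the remaining 14599 were compared with limma 3.58.1 (trend, R 4.3.3) with Benjamini-Hochberg adjustment. Genes were called where the adjusted p was under 0.05 with a log2 fold change beyond 1 in either direction. Single genes and 7 within-embryo ratios (no pseudocount) were compared by exact two-sided permutation of the embryos (scipy 1.17.1). The fit was tested on simulated data. Alternatives were the pseudocount, filter, scaling, variance model, array weights and each embryo left out.

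The genes and lists were chosen with earlier results of these data known. From the Hippo and target lists, genes without overlap and the 3 with the largest moderated statistic were named. For TEAD4, YAP1, WWTR1 and VGLL1, the 3 best correlated genes were named. Markers of trophectoderm, epiblast, hypoblast, cumulus or granulosa cells and sperm served to describe the libraries. No sequences or coordinates are given, since no genome or sequence of the build was used.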

Additional observations from a re-analysis of the deposited data

Results flagged for a closer look

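In 3 of 32 groups of 4 or 5 embryos (9 genes and 7 ratios in each genotype), a single embryo stood far from the others by Dixon's criterion. It was applied to TPM and to linear ratios, not to the log2 values used in the tests. By chance it marks about 1 in 20 groups where values are normally distributed, and the 32 groups share genes. TEAD2 was 28.1 TPM in WT embryo 4, above the other WT embryos at 15.2 to 18.3 TPM. The ratio of WWTR1 to YAP1 was 16.5 in KO embryo 4, above the other KO embryos at 4.79 to 6.63, and this embryo held the highest WWTR1 and the lowest YAP1 of all. The ratio of VGLL1 to VGLL4 was 64.1 in KO embryo 1, above the other KO embryos at 17.9 to 21.7, and this embryo held the highest VGLL1 among KO embryos and the lowest VGLL4 of all.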

How the results depend on the processing

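The number of genes called, 3, was 6 with robust moderation, 5 without a trend, 8 with a median above 1 TPM, 5 with median-of-ratios size factors, 8 with a pseudocount of 0.1 TPM, 6 with quantile normalization, and 0 to 10 with single embryos left out, and none of these calls was among the 9 genes. The sign turned for TEAD3 with median-of-ratios size factors (0.015), with quantile normalization (0.057) and over single embryos left out (-0.25 to 0.15), for TEAD2 over single embryos left out (-0.31 to 0.041), and for the log2 ratio of VGLL1 to VGLL4 with medians (-0.39). Over single embryos left out, the log2 ratio differences that changed sign ran from -0.37 to 0.37 for VGLL1 to VGLL4, from -0.15 to 0.60 for VGLL1 to YAP1, from -0.15 to 0.33 for VGLL4 to YAP1 and from -0.60 to 0.17 for TEAD4 to TEAD2. The cause was not tested. YAP1 ran from -0.98 to -0.68, WWTR1 from 0.26 to 0.72, and their log2 ratio difference from 1.03 to 1.62, with adjusted p = 0.111 to 0.333 in exact permutation tests over all its alternatives. The highest adjusted p, 0.333, came from the difference of medians over all 9 embryos (exact permutation, unadjusted p = 0.0476). With an embryo left out it was 0.20 or 0.25. The smallest p that the exact test allows is then larger, which raises the adjusted p by itself. VGLL3 was left out by the filter above 1 TPM. No paired analysis was possible because the sample titles number the embryos without repeats, and the numbers in the column names are not described as pairs. The share of VGLL1 in the cofactors turned from -11.6 to 0.73 percentage points, and that of TEAD2 in the TEADs from 0.47 to -0.33, when taken of log2(TPM + 1). The number of embryos and the spread between them limit what could be called.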

Other observations

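Across the 9 embryos, the levels of the 9 genes were compared in all 36 pairs on the log2(TPM + 1) scale. TEAD1 and VGLL1 showed the strongest relation and ran against each other (Pearson r = -0.81, exact permutation p = 0.0119, 0.428 after adjustment over the pairs; Spearman rho = -0.70, exact permutation p = 0.0433, 0.871 adjusted). Without WT embryo 1 and KO embryo 4, the embryos farthest from the median of TEAD1, r was -0.68 over 7 embryos. WT embryo 1 and KO embryo 4 had the highest TEAD1, 21.0 and 18.3 TPM, with 86.5 and 95.2 TPM of VGLL1. It was the single pair with an unadjusted p under 0.05, and 0 of 36 pairs passed the adjustment. Each genotype alone has fewer than 6 embryos, so no value within WT or KO is given.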
